A study of Mus musculus with 10 samples.

Results

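The breakdown of fatty acids and the making of ketone bodies in the liver are described here through the genes of 8 enzymes: Cpt1a and Cpt2 of the carnitine shuttle, the acyl-CoA dehydrogenases Acadvl, Acadl and Acadm, the multifunctional enzymes Hadha and Ehhadh, and Bdh1 of ketone body formation. They were picked by symbol for their known function, out of 38922 genes in the files. The rule uses no measured value, but earlier results of these data were known when the genes were chosen. Livers came from wild-type males of the inbred laboratory strain C57BL/6N, aged 6 weeks and fed without restriction. In the CD95-Ab group, 5 mice received an injection into the peritoneum of an antibody that activates the death receptor CD95 (Fas), at 0.5 µg per g of body weight. In the control group, 5 mice received the same volume of saline. All livers were taken 6 h later, and each mouse gave its own RNA-seq library, with 25965699 to 62097636 counts assigned to genes. Whole liver RNA was sequenced, so a value is an average over all cells of the piece, and fewer cells of a type and less RNA per cell cannot be told apart.

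Hepatocytes burn fatty acids in their mitochondria. Carnitine palmitoyltransferases load long acyl chains onto carnitine and hand them back to coenzyme A, so that the chains can enter the mitochondria. Cycles of β-oxidation then cut the chains to acetyl-CoA, each cycle opening with an acyl-CoA dehydrogenase that fits the chain length. When acetyl-CoA is plentiful, as in fasting, the liver turns it into the ketone bodies acetoacetate and β-hydroxybutyrate for other organs, and the nuclear receptor PPARα is the best known activator of the genes involved.

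Livers of mice injected with CD95-Ab had lower RNA levels of every one of these genes than livers of saline-injected controls. All 8 passed the test as lower (edgeR's quasi-likelihood test, FDR of 0.05 or less over the 13719 genes tested), compared with 22.0% of all tested genes called lower and 25.4% called higher. For 5 of the 8 genes (Cpt1a, Cpt2, Acadvl, Acadl and Bdh1), each mouse injected with CD95-Ab was below each control, which held for 14.7% of all tested genes. The 8 genes had a median log2 fold change of -0.63, compared with 0.01 for all tested genes, and ranged from -0.38 for Acadvl to -1.07 for Cpt1a. Levels are given below in CPM, or counts per 1000000 after TMM factors had been applied to the totals of the mice. Overlap between groups was judged in CPM throughout. In TPM, a value scaled for transcript length without TMM factors and described below, the groups overlapped for Cpt1a and Acadvl. Cpt1a had 60.5 TPM in saline replicate 5 and 84.4 TPM in CD95-Ab replicate 1. Acadvl had 178.0 TPM in saline replicate 5 and 210.6 TPM in CD95-Ab replicate 1. The 8 genes together had between 1504 and 2023 CPM in controls and between 964 and 1208 CPM after CD95-Ab. The lowest count of any of them in any mouse was 1637, so counting error was small beside the spread between mice.

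**Figure D1:**
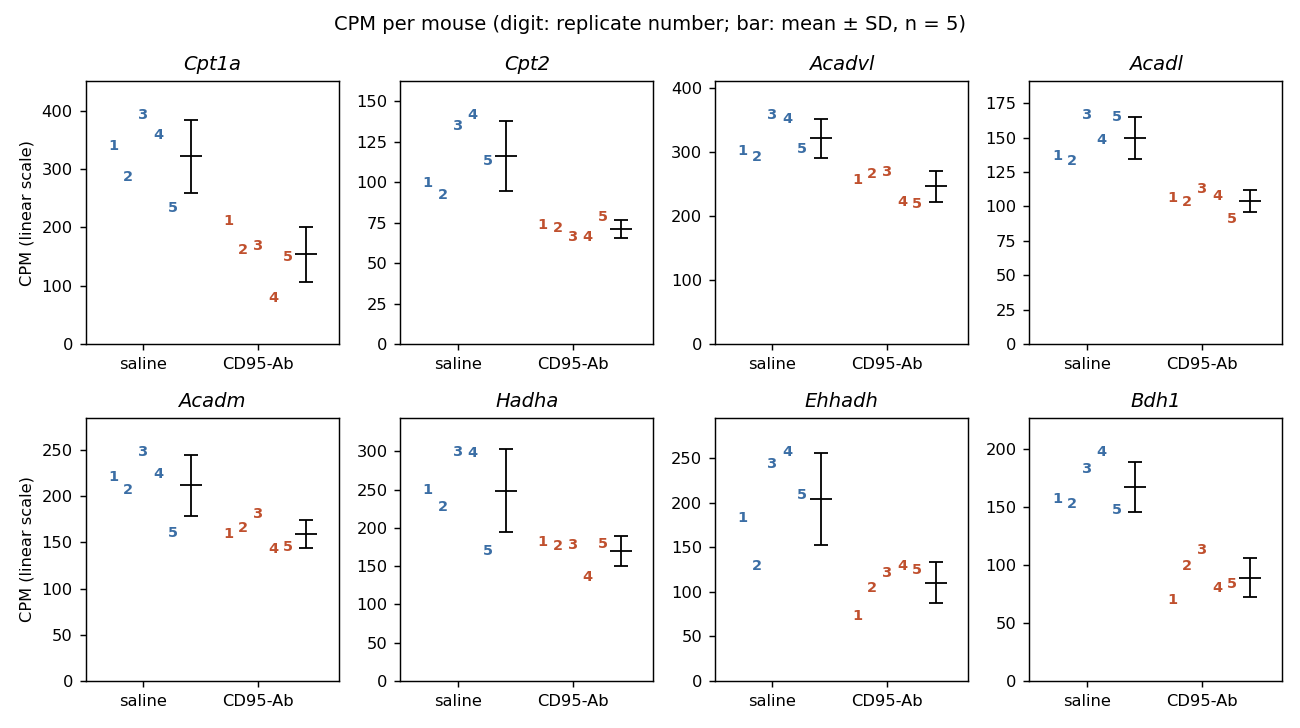
CPM of each gene (vertical axes, linear, starting at 0) in saline-injected mice and mice injected with CD95-Ab (horizontal axes). Digits are mice by replicate number, and bars to their right are mean ± SD (n = 5). In CPM, Cpt1a, Cpt2, Acadvl, Acadl and Bdh1 show no overlap between the groups, whereas Acadm, Hadha and Ehhadh do.

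Markers of the cell types of the liver did not keep their shares of the RNA. Whether the cells themselves or the marker RNA within them changed was not tested. Of 12 hepatocyte markers, 6 were lower after CD95-Ab and 0 higher (median log2 fold change -0.61), and their summed level went from a range of 128913 to 153335 CPM in controls to 66911 to 108398 CPM. Neutrophil markers summed to 4.31 to 10.99 CPM in controls and 113 to 447 CPM after CD95-Ab, with all 7 tested markers higher, while Ly6g was too low to test. Erythroid markers, mainly globin genes, summed to 135 to 323 CPM in controls and 1064 to 33995 CPM after CD95-Ab, highest in CD95-Ab replicate 3, and all 5 were higher. Markers were also called higher for 6 of 7 endothelial, 4 of 6 stellate, 4 of 5 cholangiocyte, 5 of 6 lymphocyte and 2 of 8 Kupffer cell genes, and none of these was called lower. The part of these other cells in the changes of the fatty acid genes was not tested beyond the scaling to hepatocyte markers given below. Saline replicate 5 was the deepest library, and its TMM factor, 0.869, was the lowest among controls. Without that mouse all 8 genes remained lower.

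Stretches of DNA before the RefSeq start of 3 of these genes are shown because the genes fell together: those of Cpt1a, which had the largest change, of Acadvl, which had the smallest, and of Hadha, which starts back to back with Hadhb. They come from RefSeq (GRCm38.p6), 5′ to 3′ on the strand of the gene, and leave out annotated exons of GENCODE M21. For Cpt1a, GENCODE begins the gene further upstream than RefSeq, so its stretch lies inside the gene span given below. Capitals mark 3 motifs searched on both strands: AGGTCA, the core that PPARα and its partner RXR recognise, GGGCGG, the GC box, and CCAAT.
Cpt1a (chr19:3323165-3323284, plus strand, 136 to 17 bases before the RefSeq start): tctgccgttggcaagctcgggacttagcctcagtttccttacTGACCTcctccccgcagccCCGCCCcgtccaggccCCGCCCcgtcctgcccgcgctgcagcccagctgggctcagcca
Acadvl (chr11:70015429-70015548, minus strand, 120 to 1 bases before the start): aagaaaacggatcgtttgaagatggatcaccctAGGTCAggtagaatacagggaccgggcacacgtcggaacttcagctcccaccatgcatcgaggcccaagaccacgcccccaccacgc
Hadha (chr5:30155163-30155230, minus strand, 250 to 183 bases before the start): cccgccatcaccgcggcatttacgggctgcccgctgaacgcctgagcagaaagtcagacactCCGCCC
In windows of 300 bases around the start (250 before and 50 after), AGGTCA stood in 3 of the 9 RefSeq windows of the 8 genes (Acadm, Acadvl and Cpt1a; Bdh1 has 2 windows) and in 16.3% of 32851 windows of all genes. The GC box stood in 6 of the 9 windows and in 35.7% of all windows, and CCAAT in 2 of 9 (Ehhadh and Cpt1a) and 37.4%. Of 100 windows of the other pathway genes described below, AGGTCA stood in 21, the GC box in 62 and CCAAT in 45. The share of windows with a GC box was thus also high among those genes. The direct repeat AGGTCANAGGTCA, which contains the AGGTCA motif on each side of 1 base and is the textbook PPARα site, stood in 0 of the 9 windows and in 0.0396% of all windows. A match is only a run of letters, and its absence here says nothing of sites elsewhere.

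Cpt1a encodes the liver form of carnitine palmitoyltransferase 1, which loads long-chain fatty acids onto carnitine at the outer mitochondrial membrane and is the main control point of β-oxidation. The gene (ENSMUSG00000024900) spans bases 3322334 to 3385733 of chromosome 19 in GENCODE M21 (GRCm38), the annotation used for all positions given here. Its level was 339, 286, 392, 358 and 234 CPM in saline replicates 1 to 5. In CD95-Ab replicates 1 to 5, it was 210.2, 161, 168, 79.9 and 149 CPM. The highest mouse after CD95-Ab was thus below the lowest control in CPM, though not in TPM, and CD95-Ab replicate 4 stood lowest of all. The mean fell from 322 ± 62.2 to 154 ± 47.3 CPM (SD, n = 5 each), a log2 fold change of -1.07 (SE 0.23, FDR = 0.00279).

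Cpt2 encodes the partner enzyme at the inner membrane, which hands the acyl group back to coenzyme A (ENSMUSG00000028607, chromosome 4, 107903981 to 107923610). Controls had 99.8, 91.9, 135, 141 and 113 CPM in replicates 1 to 5. Mice injected with CD95-Ab had 73.8, 71.7, 66.0, 66.1 and 78.4 CPM. The groups did not overlap, and the mice injected with CD95-Ab lay close together, with a coefficient of variation of 7.42% compared with 18.5% in controls. The mean went from 116 ± 21.5 to 71.2 ± 5.28 CPM (SD, n = 5 each), a log2 fold change of -0.71 (SE 0.14, FDR = 0.00137).

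Acadvl, Acadl and Acadm encode the very long, long and medium chain acyl-CoA dehydrogenases, which introduce the double bond that opens each cycle. Acadvl (ENSMUSG00000018574, chromosome 11, 70010183 to 70015411) had 302, 292, 357, 352 and 305 CPM in controls and 256, 266, 269.6, 223 and 219.7 CPM after CD95-Ab, in the order of replicates 1 to 5. The groups did not overlap in CPM, though they did in TPM, and the step was the smallest of the 8 genes. The mean went from 322 ± 30.7 to 247 ± 24.0 CPM (SD, n = 5 each), a log2 fold change of -0.38 (SE 0.12, FDR = 0.0218). The call was lost without saline replicate 3 (log2 fold change -0.35, FDR = 0.0541) and with the replicate number as a block (FDR = 0.0552). Acadvl overlaps Dvl2 on the opposite strand over 2119 bases. Reads that lie wholly inside the overlap can be told apart by strand only, and whether strand was used is not given in the sources used here. Dvl2 had a mean of 165.8 counts, whereas Acadvl had between 5514 and 16442 counts per mouse.

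Acadl (ENSMUSG00000026003, chromosome 1, 66830839 to 66863277) had 137, 133, 166, 148 and 165 CPM in controls and 106, 103, 112, 108 and 91.1 CPM in mice injected with CD95-Ab. All mice of the CD95-Ab group were below all controls, and both groups were narrow. The mean fell from 149.8 ± 15.4 to 104 ± 7.95 CPM (SD, n = 5 each), a log2 fold change of -0.53 (SE 0.11, FDR = 0.0026). Acadm (ENSMUSG00000062908, chromosome 3, 153922357 to 153944632) had 220.5, 207, 248, 224 and 159.9 CPM in controls and 159.6, 166, 180.4, 143 and 146 CPM after CD95-Ab. Saline replicate 5 reached down into the CD95-Ab group, and 3 of the 5 mice injected with CD95-Ab were below it. Its log2 fold change was -0.41 (SE 0.14, FDR = 0.0257), from 212 ± 32.6 to 159 ± 15.4 CPM (SD, n = 5 each). This call was lost without saline replicate 1 (FDR = 0.0531), without saline replicate 3 (FDR = 0.0645) and without CD95-Ab replicate 5 (FDR = 0.0554), with the direction kept.

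Hadha encodes the α subunit of the mitochondrial trifunctional protein, which carries out the later steps of the cycle on long chains (ENSMUSG00000025745, chromosome 5, 30118304 to 30155162). Controls had 249.2, 227, 299, 298 and 170.3 CPM, and mice injected with CD95-Ab had 181, 176, 178, 136 and 178 CPM. The groups overlapped because saline replicate 5 was as low as the CD95-Ab group, of which 1 mouse lay below it, CD95-Ab replicate 4. The log2 fold change was -0.55 (SE 0.17, FDR = 0.0165), from 248.7 ± 53.8 to 169.6 ± 19.1 CPM (SD, n = 5 each). Hadhb, the gene of the β subunit, begins 85 bases away on the opposite strand, across the stretch printed above. It had 166, 166, 204, 204 and 117 CPM in controls and 109, 118, 126, 90.1 and 117 CPM after CD95-Ab, a log2 fold change of -0.61 (SE 0.16, FDR = 0.00886). In both subunit genes the lowest control was saline replicate 5, and the lowest mouse of the other group was CD95-Ab replicate 4.

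Ehhadh encodes the bifunctional enzyme of peroxisomal β-oxidation, which acts beside the mitochondrial route (ENSMUSG00000022853, chromosome 16, 21761287 to 21787807). Its level was 183, 128.46, 243, 257 and 209 CPM in controls and 73.1, 105, 121, 128.49 and 125 CPM after CD95-Ab. Here saline replicate 2 was the low control, almost level with CD95-Ab replicate 4, and 4 of the 5 mice injected with CD95-Ab lay below every control. It varied most between controls, with a coefficient of variation of 25.1%, and fell from 204 ± 51.2 to 110.4 ± 22.8 CPM (SD, n = 5 each), a log2 fold change of -0.89 (SE 0.21, FDR = 0.00421).

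Bdh1 encodes the mitochondrial dehydrogenase that converts acetoacetate and β-hydroxybutyrate into each other, the last step of ketone body formation (ENSMUSG00000046598, chromosome 16, 31422280 to 31458901). Controls had 157, 153, 183, 198 and 147 CPM, whereas mice injected with CD95-Ab had 70.2, 99.4, 113, 80.6 and 83.3 CPM. The gap between the groups was wide, and the FDR was the lowest of the 8 genes. The mean fell from 168 ± 21.6 to 89.3 ± 16.7 CPM (SD, n = 5 each), a log2 fold change of -0.91 (SE 0.15, FDR = 4.45e-04). An antisense gene, Gm15743, overlaps Bdh1 over 1901 bases and had a mean of only 5.9 counts.

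Mice differed in a partly shared way across these genes. Among controls, saline replicate 3 was highest for 5 genes and saline replicate 4 for 3, whereas saline replicates 2 and 5 were each lowest for 4. After CD95-Ab, replicate 3 was highest for 4 genes, and replicate 4 was lowest for 3 (Cpt1a, Acadm and Hadha) but highest for Ehhadh. Per unit of transcript length (TPM, the deposited FPKM rescaled to a total of 1000000 per mouse), Acadvl had the highest level in controls, 243 ± 37.2 TPM (SD, n = 5). Acadm followed at 169 TPM, then Hadha at 129.8, Bdh1 at 129, Acadl at 122, Cpt1a at 118, Ehhadh at 104 and Cpt2 at 83.3 TPM. The order after CD95-Ab was Acadvl at 163 TPM, Acadm at 107, Hadha at 75.3, Acadl at 73.8, Bdh1 at 60.1, Cpt1a at 49.9, Ehhadh at 47.7 and Cpt2 at 46.5 TPM. In both groups the ranges of all neighbours in the order overlapped across mice. Within single mice, Acadvl was above Acadm and Acadm above Hadha in 5 of 5 mice of each group. The same held for Ehhadh above Cpt2 in controls and for Acadl above Bdh1 after CD95-Ab, whereas the other neighbours were in this order in 2 to 4 of 5 mice.

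Whether some of the genes fell more than others was tested on the ratio of each pair within each mouse. Of 28 pairs, 0 passed after adjustment (two-sided exact permutation test on mean log2 ratios, Benjamini-Hochberg adjusted over the 28 pairs), and 8 had an unadjusted exact p under 0.05. The ratio of Cpt1a to Acadm changed by a log2 value of -0.71 and that of Cpt1a to Hadha by -0.58, each with an exact p of 0.00794, the smallest that 5 mice against 5 allow, and an adjusted p of 0.0556. The ratios of Acadm to Bdh1 (0.52) and of Acadvl to Bdh1 (0.54) had the same exact p of 0.00794 and the same adjusted p of 0.0556. Adjusted over 28 pairs, 4 pairs at the smallest possible p could not pass on their own, however large their change. That 0 pairs passed thus does not show that the genes fell by the same amount. At the other end, the ratio of Acadl to Hadha changed by 0.01 (exact p = 0.968), that of Acadm to Acadvl by -0.02 (exact p = 0.849) and that of Ehhadh to Bdh1 by 0.05 (exact p = 0.794). These p-values do not show that such pairs changed alike. Without CD95-Ab replicate 1 or without CD95-Ab replicate 3, 5 pairs passed (adjusted p = 0.0444 each in the exact test), and 0 passed when any other mouse was left out. Both sets of 5 held the 4 pairs just named with an adjusted p of 0.0556, with Cpt1a to Acadvl added in the first and Hadha to Bdh1 in the second.

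**Figure D2:**
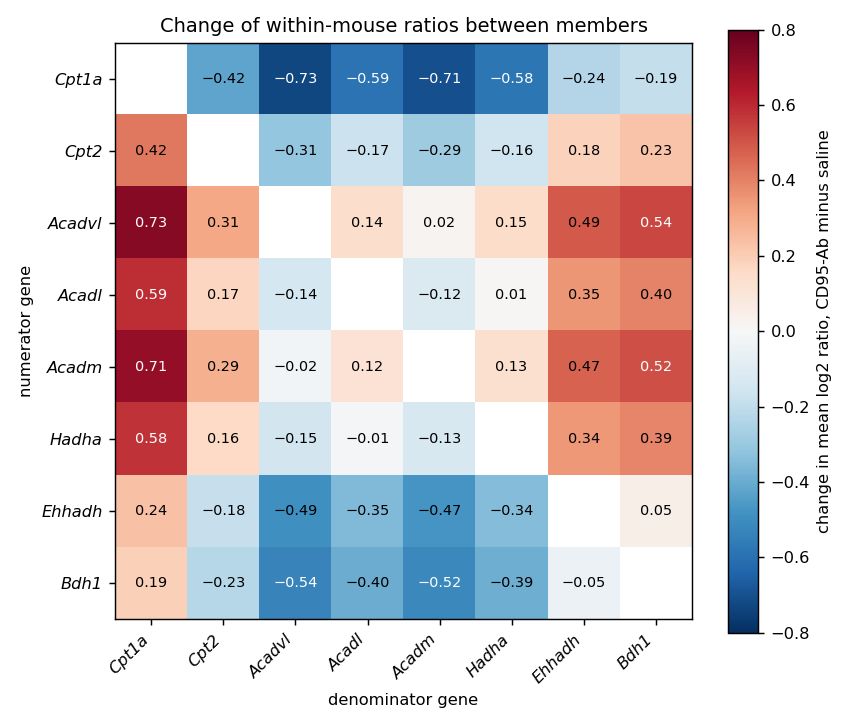
Change of the mean log2 ratio of the row gene to the column gene within a mouse, CD95-Ab minus saline (colour and printed value; n = 5 mice each). Red means that the row gene fell less than the column gene. The deepest colours set Cpt1a against Acadvl (-0.73) and Acadm (-0.71).

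All values so far are relative to the whole library. The question whether the genes fell beyond the fall of other hepatocyte RNA was asked by scaling each mouse to its summed counts of the 12 hepatocyte markers. On that scale 0 of the 8 genes were lower and 0 higher, where 2.80% of all tested genes were lower and 61.5% higher, and the median log2 fold change of all tested genes was 0.76. Cpt1a then had a log2 fold change of -0.35 (FDR = 0.208), Bdh1 of -0.18 (FDR = 0.400) and Ehhadh of -0.12 (FDR = 0.670). The sign turned for the other genes, from 0.05 for Cpt2 to 0.35 for Acadvl (FDR = 0.0878), and 5 of the 8 genes were thus above 0. Without CD95-Ab replicate 3, Acadvl was called higher on this scale (log2 fold change 0.41, FDR = 0.0400).

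That scale rests largely on albumin, the most abundant marker, whose own log2 fold change was -1.03 on TMM totals. With the other 11 markers alone, all 8 genes had a negative log2 fold change and 2 were called lower, Cpt1a (-0.74, FDR = 0.0198) and Bdh1 (-0.58, FDR = 0.00946), against 8.31% of all tested genes. Scaled to the summed counts of 17 genes of the tricarboxylic acid (TCA) cycle, mitochondrial enzymes that oxidise the acetyl-CoA made by β-oxidation, 4 genes were called lower, against 9.07% of all tested genes, and the median of all genes was 0.31. They were Cpt1a (-0.75), Bdh1 (-0.61), Ehhadh (-0.56) and Cpt2 (-0.38), while Hadha, Acadl, Acadm and Acadvl lay between -0.24 and -0.07. The TCA cycle genes themselves had a median log2 fold change of -0.29 on TMM totals, with 7 of 17 lower and 0 higher. The sign of the 8 genes was therefore the same under TMM, TCA cycle genes and markers without albumin, and mixed when albumin was counted. For some genes that sign belongs to a value near 0. Acadvl had -0.07 on TCA cycle genes (FDR = 0.655) and -0.05 on markers without albumin (FDR = 0.770). Acadm had -0.11 (FDR = 0.541) and -0.09 (FDR = 0.663).

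**Figure D3:**
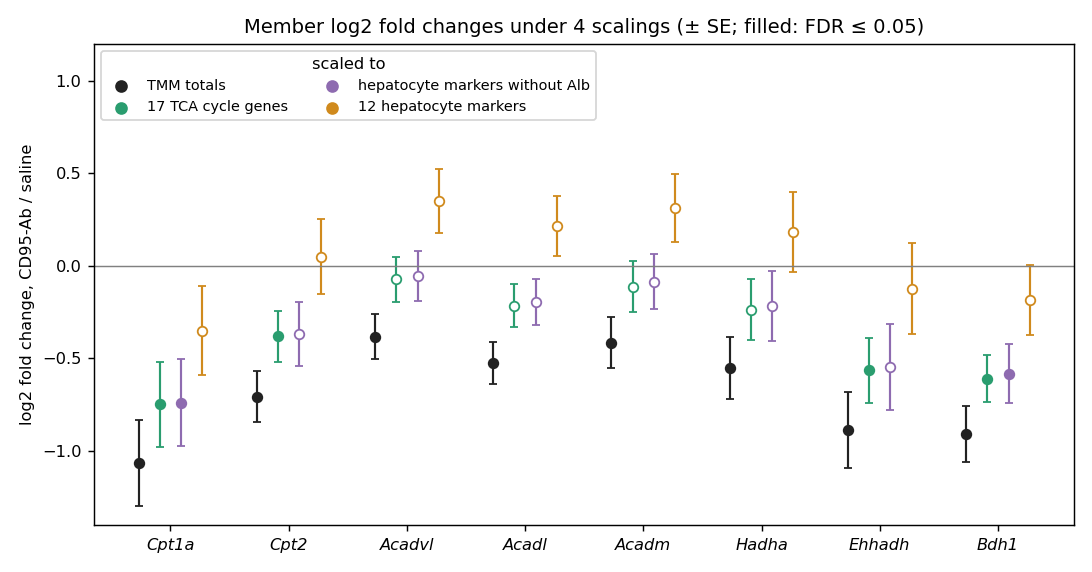
Log2 fold change of each gene (vertical axis, CD95-Ab over saline, ± SE, 5 mice per group) when mice are scaled to TMM totals, TCA cycle genes, hepatocyte markers without albumin or all 12 hepatocyte markers (colours). Filled points have an FDR of 0.05 or less. The black points all lie between -1.07 and -0.38, and the orange points on both sides of 0.

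The genes around these 8 were examined with 10 lists of pathway genes, 107 genes in all. Of the 106 that could be tested, 72 were lower, 9 higher and 25 not called, compared with 22.0% of all tested genes lower and 25.4% higher. The median log2 fold change of the 106 was -0.67. The groups did not overlap, with CD95-Ab lower, in 43 of them, which held for 14.7% of all tested genes. Scaled to the 12 hepatocyte markers, 21 of the 106 were lower and 19 higher, compared with 2.80% and 61.5% of all tested genes, and the median was 0.09. The genes lower on both scales lay mostly outside the chain of β-oxidation itself: they were Acsl1, Mlycd, Abcd2, 4 Cyp4a genes of ω-oxidation, Acot3 and Acot4, the transporter gene Slc16a7, 3 of the 9 genes of lipolysis and lipid droplets, 5 of the 18 regulators, and Fgf21, Angptl4 and Txnip. None of the 16 other genes of mitochondrial β-oxidation was called in either direction on the marker scale. Medians turned from negative to positive on that scale for uptake and activation, mitochondrial β-oxidation, peroxisomal oxidation, ketone bodies and fasting genes. Scaled to TCA cycle genes, 36 of the 106 were lower and 12 higher, compared with 9.07% and 37.4% of all tested genes. All log2 fold changes in the following paragraphs are on TMM totals, where 22.0% of all tested genes were lower and 25.4% higher.

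Genes for the uptake and activation of fatty acids went both ways, with 8 of 12 lower and 3 higher (median -0.53). Acsl1, the main long-chain acyl-CoA synthetase of the liver, fell from 719 ± 214 to 191 ± 55.0 CPM (SD, n = 5 each), a log2 fold change of -1.91 (SE 0.25, FDR = 8.17e-05). The fatty acid transporter gene Cd36 rose from 15.2 ± 2.81 to 42.1 ± 8.15 CPM (SD, n = 5 each; log2 fold change 1.47, FDR = 3.55e-05), and another acyl-CoA synthetase gene, Acsl3, rose as well (1.13). The list of the carnitine shuttle also holds Acacb and Mlycd, whose products make and remove malonyl-CoA. It was lower in 5 of 6 tested genes (median -0.94), Acacb among them, and Cpt1b, the muscle form, was the remaining one. Acacb is named to stand beside Mlycd, outside the rule for named genes. Mlycd, whose product removes the CPT1 inhibitor malonyl-CoA, had a log2 fold change of -1.22 (FDR = 5.55e-06), Crat, carnitine acetyltransferase, of -1.14, and Slc25a20, the carnitine-acylcarnitine carrier between Cpt1a and Cpt2, of -0.98 (FDR = 2.44e-04).

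Mitochondrial β-oxidation outside the 8 genes was lower in 12 of 16 genes and higher in 0 (median -0.61). The changes were moderate, among them -0.80 for Hadh, the short-chain hydroxyacyl-CoA dehydrogenase (FDR = 6.71e-05), and -0.75 for Acad10. Acad12 had -0.82 (FDR = 0.0379), a call lost with limma on FPKM (FDR = 0.0561), with the replicate block (FDR = 0.0968) and without any of saline replicates 1 to 3 or CD95-Ab replicates 1 to 4 (FDR of 0.0559 to 0.103). Peroxisomal oxidation was lower in 10 of 17 and higher in 0 (median -0.62). Abcd2, a peroxisomal transporter of fatty acids, fell from 23.4 ± 12.2 to 2.94 ± 1.27 CPM (SD, n = 5 each; log2 fold change -3.00, FDR = 9.54e-05), Amacr had -0.97 and the transporter gene Abcd3 -0.95.

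Side routes showed the largest changes. For ω-oxidation, which attacks the far end of the chain, 5 of 7 genes were lower (median -2.04), led by Cyp4a14 (-3.14), Cyp4a31 (-2.53) and Cyp4a10 (-2.52). All 7 acyl-CoA thioesterase genes, which release free fatty acids from coenzyme A, were lower (median -1.20), led by Acot3 (-3.08), Acot1 (-1.70) and Acot4 (-1.57). The Cyp4a genes and Acot1 to Acot4 are close copies of each other, so reads can fit several of them and their single values are uncertain. RSEM can share out such reads, but the deposited counts were all whole numbers. How these reads were counted is therefore not known. The Cyp4a controls also varied widely, with 364 ± 291 CPM for Cyp4a14 (SD, n = 5).

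Ketone body genes other than Bdh1 were lower in 5 of 8 and higher in 1 (median -0.51). The transporter gene Slc16a7 had -1.33 and Bdh2 -0.96. Oxct1, which serves ketone use and is hardly expressed by hepatocytes, rose from 3.31 ± 0.746 to 5.40 ± 0.732 CPM (SD, n = 5 each; log2 fold change 0.70, FDR = 0.00682), a call lost by a narrow margin with library totals alone (0.60, FDR = 0.0502).

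**Figure D4:**
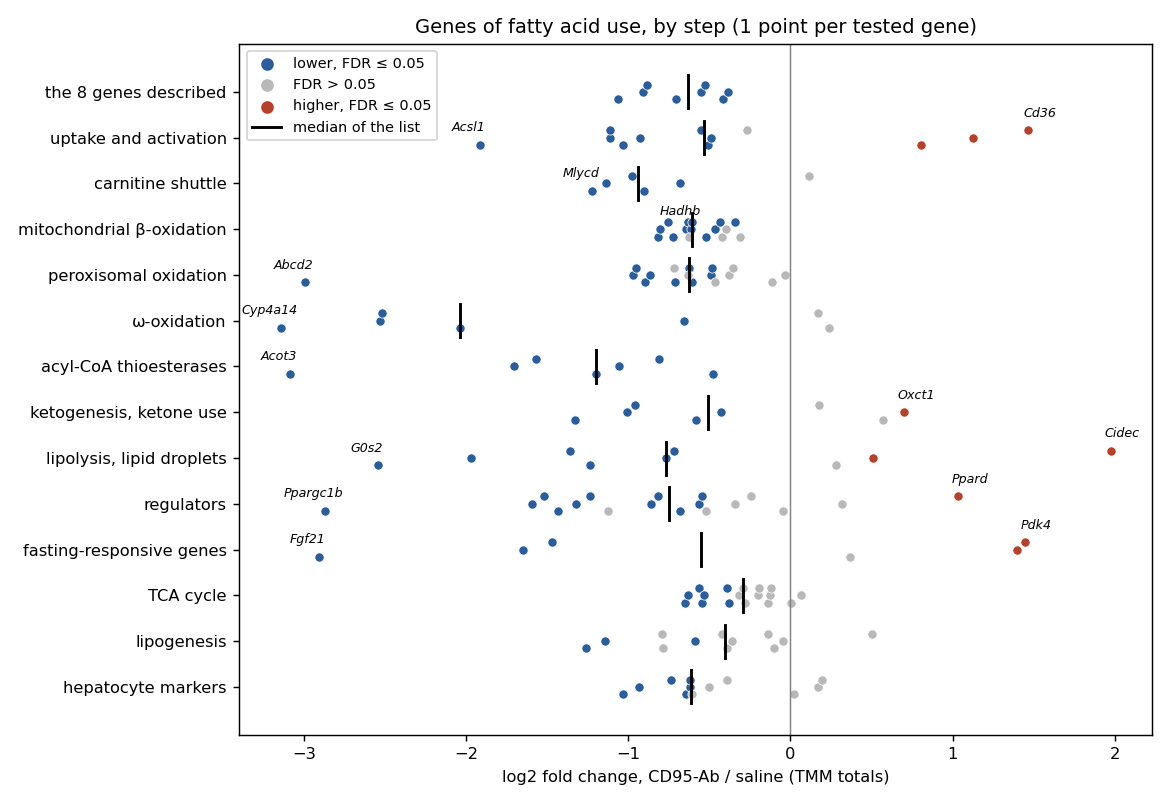
Log2 fold change (horizontal axis, CD95-Ab over saline, TMM totals, 5 mice per group) of each tested gene in lists ordered by step. Blue and red points have an FDR of 0.05 or less, grey points do not, and black bars are medians of lists. The medians run from -0.29 (TCA cycle) to -2.04 (ω-oxidation), and red points lie in 5 of the lists only.

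Genes of lipolysis and lipid droplets were lower in 6 of 9 and higher in 2 (median -0.77). G0s2, an inhibitor of the lipase ATGL, had -2.55 (-1.85 without saline replicate 4) and the droplet protein gene Plin5 -1.97, whereas Cidec, which enlarges lipid droplets, rose (1.98, FDR = 0.00917), although not with the replicate block (1.89, FDR = 0.0555). Among 18 regulators of this metabolism, 11 were lower and 1 higher (median -0.75). Ppara had 68.2, 45.9, 92.0, 66.3 and 50.1 CPM in controls and 30.7, 20.9, 30.0, 6.66 and 18.3 CPM after CD95-Ab, a log2 fold change of -1.60 (SE 0.35, FDR = 0.00261) with no overlap. Its lowest mouse, CD95-Ab replicate 4, was also the lowest for Cpt1a, Acadm and Hadha. The same mouse was the highest of its group for Ehhadh. It was also highest for the summed ω-oxidation genes (978 CPM, compared with 350 to 712 CPM in the rest of the group). The coactivator genes Ppargc1b (-2.87, FDR = 1.38e-06) and Ppargc1a (-1.52, FDR = 0.00459) also fell, and Ppard was the 1 regulator that rose (1.04, FDR = 2.34e-04). Ppard is named because of its value, outside the rule for named genes.

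Of 6 genes that respond to fasting, 3 fell and 2 rose. Fgf21, a hormone of the fasted liver, fell from 5.78 ± 6.48 to 0.753 ± 0.487 CPM with overlapping groups (SD, n = 5 each; log2 fold change -2.91, FDR = 0.00651, and -1.97 without saline replicate 2), Angptl4 had -1.65 and Txnip -1.47. Pdk4, a kinase that holds back pyruvate oxidation and that PPARα also activates, rose from 3.93 ± 2.78 to 10.6 ± 1.33 CPM (SD, n = 5 each; log2 fold change 1.44, FDR = 0.0161), and so did Ucp2 (1.40), which is named because of its value. For comparison, genes of lipogenesis, the opposite pathway, were lower in 3 of 12 and higher in 0, a share near the 22.0% of all tested genes called lower. Even so, 11 of the 12 had a negative log2 fold change, with a median of -0.41, compared with 0.01 for all tested genes. Their summed level went from 8354 ± 2745 to 4525 ± 1071 CPM (SD, n = 5 each).

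Genes outside all lists with the profile most like each of the 8 were found by the root mean square (RMS) difference of log2 CPM over the 10 mice, among 6884 genes with a mean of at least 10 CPM. For Cpt1a the nearest was Fam160b1, at an RMS difference of 0.211, followed by Ipmk and Tmem106b. Ap4b1 (0.110), Def8 and Cog4 stood nearest to Cpt2, Prkag1 (0.0819), Rab1b and Emc3 to Acadvl, and Ciao1 (0.0818), Mrps2 and Wdr45 to Acadl. Acadm had the closest match of all, Tgds at 0.0580, before Mrpl44 and Tec. The nearest to Hadha were Ccdc91 (0.0977), Pik3c3 and Ttc33, those to Ehhadh were Etfrf1 (0.175), Ces1d and Slc17a4, and those to Bdh1 were Myh14 (0.102), Sardh and Slc8b1. Among the 8 genes themselves, the nearest pair was Acadm and Acadvl (0.127) and the most distant Cpt1a and Acadvl (0.602). The profiles include the group difference, so genes that fell by the same amount are near each other.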

How the data were processed

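Liver RNA of 5 saline-injected mice and 5 mice injected with CD95-Ab was analysed. The authors assigned paired reads of 100 bp to genes with RSEM 1.2.19 and deposited an expected count, which is not normalized, and an FPKM value, scaled for length and library, per gene and mouse. The counts were all whole numbers. The mouse annotation and build are not given in the sources used here. Of 38922 identifiers, 37606 matched a symbol in GENCODE M21 (release 21); Tf was matched as Trf through RefSeq synonyms.

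Genes were kept by filterByExpr (minimum count of 10), scaled with TMM factors and tested with edgeR 4.0.16 in R 4.3.3 (quasi-likelihood, group as the only term). P-values were adjusted by Benjamini-Hochberg over all 13719 tested genes. Scaling to markers used their summed counts as the library size. Member ratios used log2(count + 0.5) and exact permutation over the 252 splits of the mice. In the shallowest library, 0.116 CPM stands for 3 counts. The scripts were tested on simulated data. Alternatives were other scalings, DESeq2 1.42.0, limma 3.58.1 on log2(FPKM + 0.1), other filters and thresholds, a replicate block and each mouse left out. No batch is labelled, so no value within batches could be computed.

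The 8 genes and the lists were chosen with earlier results of these data known. Genes named are the 8, up to 3 genes per list with the largest change among those called, and Acsl1, Slc25a20, Hadhb, Oxct1, Ppara, Ppargc1a, Fgf21 and Pdk4, besides the nearest profiles. Some genes of this rule are not reported here.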

Additional observations from a re-analysis of the deposited data

Results flagged for a closer look

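Hadha in CD95-Ab replicate 4, at 136 CPM, stood apart from the other 4 mice of its group, which had between 176 and 181 CPM. Its gap to the nearest mouse was 0.894 of the range of the group, above the critical value of Dixon's test for 5 mice. Of the 16 groups of 5 values tested (8 genes in both groups), this was the 1 beyond that limit, and chance alone gives about 1 in 20. Without this mouse, Hadha remained lower after CD95-Ab.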

How the results depend on the processing

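The 8 genes kept their direction in all 152 alternatives run for single genes, and lost their call in 5 of them: Acadm without 1 of 3 mice and Acadvl without saline replicate 3 or with the replicate block. All 8 were lower with each other scaling of totals, with DESeq2, with the likelihood ratio test, with limma on FPKM and with other filters. When each mouse was left out, 6 to 8 were lower, 62 to 74 of the other pathway genes were lower and 8 to 10 higher. With an FDR of 0.01, 5 of the 8 were lower. With an added log2 fold change of at least 1 in size, 1 of the 8 and 31 other pathway genes were lower, and with at least 2, the study's threshold, 0 of the 8 and 9 others were lower and 0 others higher; these thresholds keep fewer genes by construction. Relative to hepatocyte markers, 0 were lower, but 2 without albumin and 4 relative to TCA cycle genes, while 0 to 1 were higher and 0 were lower when each mouse was left out. Pairs with a changed ratio numbered 0 to 5 when each mouse was left out. Of calls over all tested genes, 53.6% were higher with TMM, 95.6% relative to hepatocyte markers and 80.5% relative to TCA cycle genes.

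Mice with the same replicate number are not described as matched, and their deviations from the group means had a mean correlation of 0.037, from -0.274 to 0.257 over the 5 numbers. With the replicate block, 7 of the 8 genes were lower (Acadvl had FDR = 0.0552), with 66 other pathway genes lower and 7 higher, and 0 of the 8 were lower or higher relative to hepatocyte markers. For the 35 other genes of the lists under the rule for named genes, 642 of 663 alternatives kept the call, 15 lost it and 6 gained it, with no change of direction. Depth did not limit the 8 genes, whereas Cpt1c, at 0.325 CPM in controls, was too low to test.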
